A study of Homo sapiens with 80 samples.

Results

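The 10 genes described here belong to the Notch signalling system and were followed through the differentiation of human pluripotent stem cells into cardiomyocytes. They were chosen by name from the 43388 genes of the deposited tables: 4 ligands (JAG1, DLL1, DLL3 and DLL4), 2 receptors (NOTCH1 and NOTCH3) and 4 transcription factors that Notch signalling is known to switch on (HEY1, HEY2, HEYL and HES1). All 10 genes were listed in both expression tables. In Notch signalling, a ligand on the surface of a cell binds a receptor on its neighbour, the receptor is cut, and its inner part enters the nucleus, where it joins the DNA-binding protein RBPJ and a Mastermind coactivator. HES and HEY proteins are repressors made in response. In the embryo the system acts in somite formation, in the endocardium and vessels, and in the patterning of the heart chambers, where HEY1 marks the atrial side and HEY2 the ventricular side.

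The cells were taken through a protocol that first activates WNT signalling with CHIR99021 on day 0 and then blocks WNT secretion with IWP2. Once a differentiation was finished, flow cytometry for cardiac troponin T gave its purity and it was classed as high or low purity, and the design asks which transcripts set the classes apart on the way there. The multi-omic experiment held 56 poly(A) RNA libraries, all of the induced pluripotent line WTC11. Its 25 high purity libraries were wells of 1 differentiation begun at passage 52, and its 31 low purity libraries were wells of 1 differentiation begun at passage 69. High and low purity wells numbered 4 and 4 on days 0, 2, 4 and 6, 3 and 4 on day 8, 1 and 4 on day 10, 2 and 4 on day 13, and 3 and 3 on day 16. In this experiment purity cannot be told apart from passage or from the differentiation itself, and its p-values measure the spread between wells of the same differentiation. The RNA-only experiment held 24 total RNA libraries from 3 lines: WTC11, IMR90-4 (induced pluripotent) and H9 (embryonic). Each line gave 1 high and 1 low purity differentiation, begun at passages 81 and 69 for WTC11, 55 and 75 for IMR90-4, and 58 and 55 for H9. Each differentiation was sampled once at 4 stages, on days 0, 2, 4 and 6 for WTC11 and on days 0, 3, 5 and 7 for the other lines. Values are TPM, transcript abundances that are scaled to gene length, and the kits differ between the experiments, so levels are compared within an experiment.

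Depth was 6579715 to 18143597 reads per library in the multi-omic experiment and 17990882 to 40357968 in the RNA-only experiment. On day 0 the summed TPM of 6 pluripotency markers was 3571 to 4499 in the multi-omic wells, although POU5F1, whose symbol is listed at 7 places, reached at most 0.804 TPM in any of the 56 libraries. By day 16 that of 10 cardiomyocyte markers was 12633 to 14728 in high purity and 4559 to 6774 in low purity wells. The H9 low purity differentiation stood apart from day 3 on. Its library of day 3 had a cardiomyocyte marker sum of 503 TPM, against 11.3 to 50.8 in the other 5 libraries of that stage, and the lowest sum of presomitic and paraxial mesoderm markers, 36.3 TPM against 97.2 to 367. Its libraries of days 5 and 7 had the highest fibroblast marker sums of their stages, 796 TPM against 48.1 to 379 and 1561 TPM against 165 to 404, and the highest epicardial sums, 67.7 TPM against 1.72 to 35.6 and 159 TPM against 3.52 to 26.2. On day 7 its cardiomyocyte sum was 360 TPM, against 1120 to 4874. The fold changes over the 3 lines that are printed for single members are therefore given with and without H9.

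A gene was called changed at a Benjamini-Hochberg adjusted p under 0.05 over all genes tested together with a log2 fold change of 1 or more in either direction. Fold changes of the multi-omic experiment are limma estimates on log2(TPM + 1) after TMM scaling, which understates the change of genes near 1 TPM, and levels are TPM as deposited. Of the 10 members, 9 passed the filter on low values in both experiments. The exception was DLL1, a ligand best known from the presomitic mesoderm, which had 0 reads in 53 of 56 multi-omic libraries and in 22 of 24 RNA-only libraries, and at most 5 reads (0.261 TPM) in any. Its symbol is listed at 2 places in the tables. Among 773 protein-coding symbols with such a further entry, 75.0% stayed under 1 TPM in every multi-omic library, against 13.8% of 18419 symbols with a single entry. The part of this listing in the DLL1 value was not tested, so its level is uncertain.

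The members changed at different times in the multi-omic experiment. In both classes DLL3 rose and fell again within the first 4 days, JAG1 and HEY1 rose between days 2 and 4, and HEY2 rose between days 8 and 16. In high purity wells HES1 rose by day 2 and again between days 4 and 6, and in low purity wells HEYL rose between days 6 and 8. High and low purity wells differed little on day 0, when 0 of the 9 members were called, against 1.07% of all 25664 genes tested. Day 2 had 1 member called, which was higher in high purity wells, where 5.32% of all genes were called, 2.25% higher and 3.07% lower. Day 4 had none, with 7.84% of all genes called, 3.62% higher and 4.22% lower. Day 6 had 3, all higher, against 8.8% of all genes, 3.61% higher and 5.19% lower. Day 8 had 2 higher and 1 lower, against 12.2%, split into 4.66% and 7.5%. Day 10 had 4 higher and 1 lower, against 14.3%, split into 5.76% and 8.56%. Day 13 had 3 higher and 1 lower, against 10.8%, split into 4.55% and 6.23%. Day 16 had 4 higher and 2 lower, against 13.4%, split into 5.76% and 7.65%. By day 16 HEY1, HEY2, DLL4 and DLL3 were higher and HEYL and HES1 lower in high purity wells. The median log2 fold change of the 9 members was 0.14 on day 0, 0.81 on day 6 and 0.58 on day 16, and that of all genes was between -0.06 and 0.01 on each of the 8 days.

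**Figure D1:**
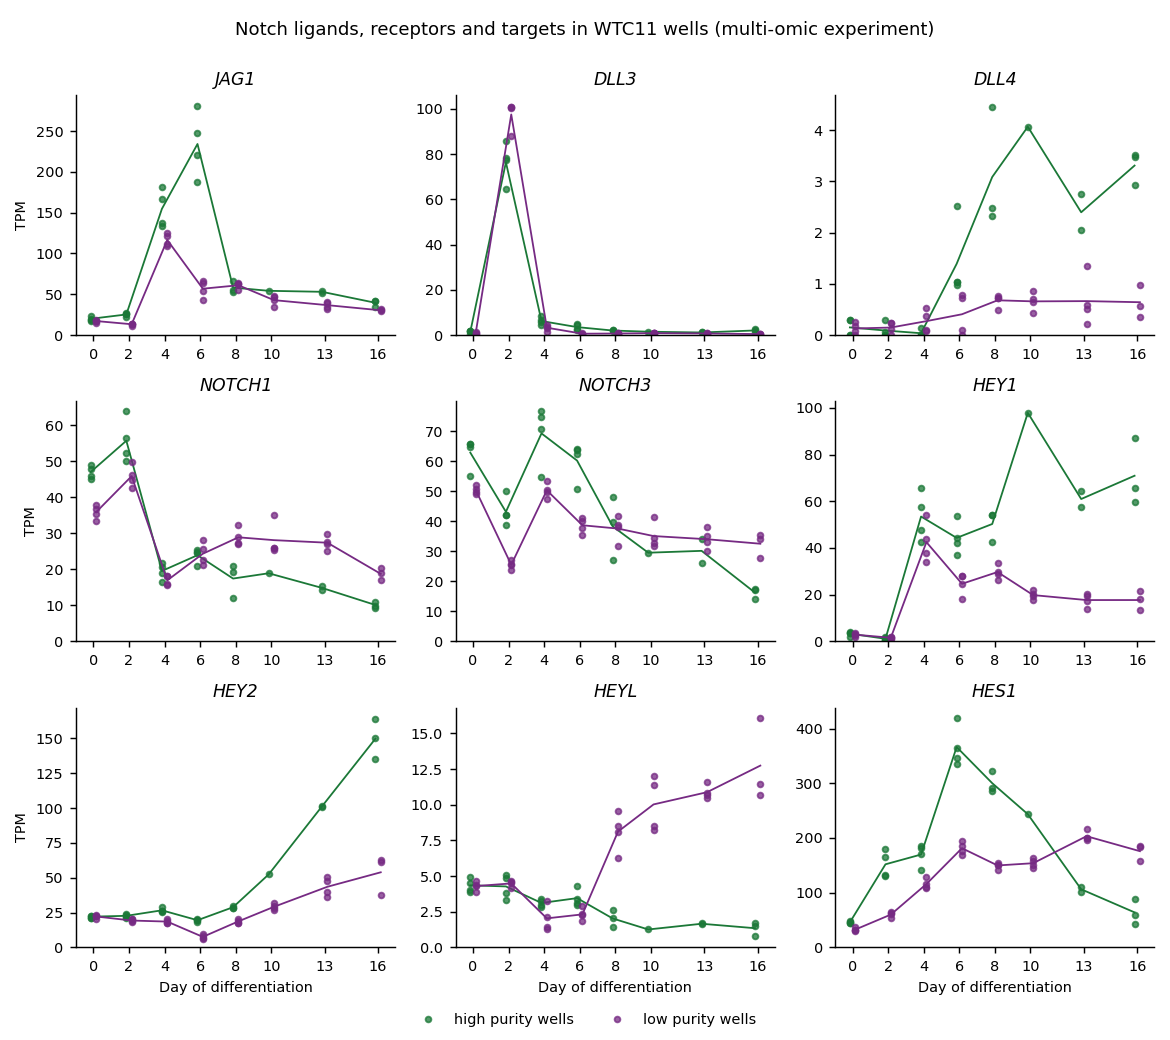
TPM of 9 members in each well of the multi-omic experiment by day of differentiation; points are wells, lines join the means, green is high and purple low purity. JAG1 peaked on day 6 at a mean of 234 TPM in high purity wells, DLL3 on day 2 in both classes, and HEYL and HES1 ended higher in low purity wells.

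JAG1 encodes a membrane ligand of the Jagged group that is used in heart and vessel development. Its gene lies on chromosome 20 (10637684 to 10673999, minus strand, GENCODE v29 on GRCh38). JAG1 was the most abundant of the 4 ligands from day 4 on and set the classes apart on day 6. On day 0 the wells of both classes ran from 15.3 to 23.8 TPM. On day 2 the high purity wells had 22.8 to 26.5 TPM and the low purity wells 11.5 to 14.0, a fold change of 0.95 that was under the fold threshold (adjusted p = 7.4e-10). On day 4 they had 134 to 181 and 109 to 125 TPM. The gap was widest on day 6, when the high purity wells had 280.3, 221, 248 and 187 TPM and the low purity wells 66.1, 63.7, 54.0 and 43.5. The lowest high purity well was thus above the highest low purity well, and the log2 fold change of high minus low was 2.01 ± 0.11 (SE, adjusted p = 5.6e-20). By day 8 the wells overlapped again, at 53.3 to 66.4 and 55.0 to 64.4 TPM. On days 10, 13 and 16 the high purity wells again lay above the low purity wells, with fold changes of 0.75, 0.71 and 0.58, under the threshold. Between days 2 and 4, JAG1 rose by 2.44 on the log2 scale in the high and by 2.99 in the low purity differentiation. It then fell by 1.74 between days 6 and 8 in the high purity wells, and by 1.10 between days 4 and 6 in the low purity wells. That last fall was -0.99, short of the threshold, without the fourth low purity well of day 6. An antisense gene, AL050403.2, shares exon bases with JAG1, and the strand setting of the counting is not given in the sources used here, so reads of the pair may be mixed.

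In the RNA-only experiment JAG1 differed between the classes in H9 most of all. H9 had 151 TPM in the high and 6.51 TPM in the low purity library on day 5, and 158 against 10.0 TPM on day 7. WTC11 had 87.4 against 42.3 TPM on day 4 and 156 against 69.5 TPM on day 6. IMR90-4 showed no such gap, with 51.8 against 63.8 TPM on day 5 and 88.6 against 91.9 TPM on day 7. Over the 3 lines the fold change was 1.47 ± 1.03 at the third stage and 1.62 ± 0.99 at the last, and neither was called (edgeR, adjusted p = 0.79 and 0.56). Without H9 these were 0.26 and 0.61. On day 2, WTC11 went the other way, with 7.95 TPM in the high and 21.9 TPM in the low purity library.

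DLL3 encodes a divergent ligand known to act inside the cell that makes it, and is known from somite formation. The gene lies on chromosome 19 (39498895 to 39508481, plus strand). It was almost silent on day 0, at 0.182 to 1.84 TPM, and appeared in a single sharp peak on day 2. The high purity wells then had 85.7, 77.2, 64.4 and 78.3 TPM and the low purity wells 100.4, 101, 87.9 and 101. All low purity wells lay above all high purity wells, yet the fold change of -0.28 ± 0.22 was not called (adjusted p = 0.34). DLL3 rose by 4.99 in the high and 5.77 in the low purity differentiation from day 0 to 2 and fell by 3.56 and 4.64 from day 2 to 4. Later it stayed low but higher in high purity wells. On day 6 the high purity wells had 4.53, 2.75, 2.03 and 4.82 TPM against 0.974, 0.701, 0.595 and 0.172, a fold change of 1.40 (adjusted p = 9.3e-07). On day 16 they had 1.38, 2.26 and 2.5 against 0.498, 0.283 and 0.521 TPM, a fold change of 1.26 (adjusted p = 5.5e-05). The low purity values of day 16 rest on 3 to 6 reads per well. Counted on recovered reads with edgeR, the day 6 and day 16 fold changes were 2.51 and 2.47.

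The DLL3 peak recurred at the second stage of the RNA-only experiment, with the classes in the opposite order. The high purity libraries had 193, 223 and 149 TPM in H9, IMR90-4 and WTC11, and the low purity libraries 14.1, 123 and 35.9. Each high purity library thus exceeded its low purity partner, and the ratio was widest in H9. The fold change was 2.16 ± 0.58 (edgeR, adjusted p = 0.45, not called), and 1.40 without H9. DESeq2 called it, with a fold change of 2.18 (adjusted p = 0.0093). DLL3 was higher in the high purity library in all 3 lines at all 4 stages. Whether the experiments differ in this order was not tested. Over all lines DLL3 rose by 3.78 ± 0.47 from the first to the second stage and fell by 3.14 ± 0.45 from the second to the third, and without H9 it rose by 4.63 and fell by 3.21.

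DLL4, the ligand of arterial and endocardial endothelium, lies on chromosome 15 (40929333 to 40939073, plus strand). It was near 0 until day 4, with at most 0.536 TPM and 6 reads in any well, and then rose to a few TPM in high purity wells. On day 8 these had 4.45, 2.32 and 2.48 TPM, and the low purity wells 0.767, 0.733, 0.730 and 0.485. On day 16 they had 3.47, 3.52 and 2.94 against 0.577, 0.985 and 0.362 TPM. The classes did not overlap on any day from 6 on. Of all genes, 11.5% to 16.8% by day likewise had every high purity well above every low purity well. For days 8, 10, 13 and 16 the fold changes were 1.37, 1.87, 1.18 and 1.62, with adjusted p-values from 8.2e-09 to 2.2e-05. At these low levels the scale matters: edgeR on recovered reads gave 2.39, 3.02, 2.05 and 2.55 for the same days. The rise from day 4 to 6 in high purity wells was 1.08, and 0.91 without the first well of day 6, which had 2.52 TPM while the other 3 had 0.968 to 1.04. In the RNA-only experiment DLL4 stayed between 0.0307 and 0.771 TPM, and no stage was called. At the second stage its fold change was -1.33 ± 0.68 (edgeR, adjusted p = 0.67), lower in high purity, and -1.65 without H9.

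Many endothelial markers were higher where DLL4 was. Of 13 endothelial markers fixed as a list, 9 were called higher and 1 lower in high purity wells on day 6, 10 and 1 on day 8, and 7 and 2 on day 16. Of all genes, 3.61%, 4.66% and 5.76% were called higher on these days, and 5.19%, 7.5% and 7.65% lower. Endoderm markers were often higher too. Of 6, with SOX17 in both lists, 4 were called higher and 1 lower on day 6, 4 and 2 on day 8, and 3 and 1 on day 16. The summed endothelial level did not follow: it was 207 to 275 TPM in the high and 197 to 224 TPM in the low purity wells on day 8, and 63.2 to 78.5 against 164 to 241 TPM on day 16. PECAM1, CLDN5, CD34, ERG and SOX18 were under 0.5 TPM in every low purity well of day 8, and none of the 13 was so low in every high purity well of that day. CLDN5, however, was under 0.5 TPM in every high purity well of days 6, 10, 13 and 16. The 4 endocardial markers went the other way, with a sum of 71.7 to 87.5 TPM in high and 128 to 140 TPM in low purity wells on day 8, and 49.3 to 70.1 against 171 to 208 TPM on day 16, when 2 of 4 were called lower and none higher. The part of endothelial or endocardial cells in the DLL4 values was not tested. In bulk RNA, more cells of a type and more RNA per cell cannot be told apart.

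The receptors were the steadiest members. NOTCH1, on chromosome 9 (136494433 to 136545786, minus strand), is the receptor that serves most tissues, and NOTCH3, on chromosome 19 (15159038 to 15200981, minus strand), is best known from vascular smooth muscle. Neither was called between the classes on any of the 8 days. NOTCH1 had 45.2 to 49.0 TPM in the high and 33.5 to 37.8 TPM in the low purity wells on day 0, and a mean of 55.7 ± 6.10 (SD, n = 4) against 45.9 ± 3.12 TPM (n = 4) on day 2. It then fell by 1.58 in the high and 1.44 in the low purity differentiation to day 4, when the wells of both classes had 15.6 to 21.8 TPM. From day 8 the order in TPM turned, with 12.0 to 21.0 TPM in the high and 27.1 to 32.2 TPM in the low purity wells of day 8. After TMM scaling the fold change of day 10 was only -0.14. On day 16 the high purity wells had 9.26, 11.0 and 9.92 TPM and the low purity wells 20.4, 18.9 and 16.9, a fold change of -0.63 ± 0.10 (adjusted p = 1.6e-06), under the fold threshold. The change of the NOTCH1 difference between days 4 and 16 was -0.83 ± 0.14, also under it, and -1.03 without scaling.

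NOTCH3 stood higher in high purity wells on days 0 to 6, without overlap, as did 15.7% to 16.7% of all genes by day. It was lower on day 16. On day 2 the high purity wells had 42.1, 49.9, 42.0 and 38.6 TPM and the low purity wells 27.0, 25.5, 25.7 and 23.8, a fold change of 0.80 ± 0.09. On day 16 they had 14.1, 17.1 and 17.4 against 35.6, 34.1 and 27.9 TPM, a fold change of -0.75 ± 0.11. The change of the difference between days 4 and 16 was itself called, at -1.20 ± 0.14 (adjusted p = 2.5e-09). On days 8, 10 and 13 the sign for NOTCH3 depended on the scaling, with 0.22, 0.17 and 0.01 after TMM, and a value just below 0, -0.23 and -0.18 without it. In the RNA-only experiment NOTCH1 ran from 2.24 to 10.1 TPM and NOTCH3 from 5.86 to 14.5 TPM. The H9 libraries of day 3 had the widest gap for NOTCH1, 10.1 TPM in the high and 3.30 TPM in the low purity.

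HEY1 was the target that stood furthest above low purity wells in high purity wells from day 10 on. It is a repressor of atrial and endothelial cells, encoded on chromosome 8 (79764010 to 79767863, minus strand). It switched on between days 2 and 4 in both differentiations, from 0.414 to 1.82 TPM up to 33.8 to 65.8 TPM, a rise of 4.67 in the high and 4.06 in the low purity wells. After that it held or rose in high purity wells and drifted down in low purity wells. The single high purity well of day 10 had 97.9 TPM, and the low purity wells had 21.8, 20.0, 19.4 and 17.8. On day 16 the high purity wells had 65.6, 87.3 and 59.8 TPM and the low purity wells 13.4, 21.5 and 18.0. The fold changes of days 10, 13 and 16 were 2.66 ± 0.29, 1.93 ± 0.22 and 2.17 ± 0.21 (adjusted p = 3.9e-10, 1.2e-09 and 5.6e-12). The fit assumes that the lone day 10 well varies like the other groups. The difference between the classes grew by 1.84 ± 0.28 from day 4 to 16 (adjusted p = 4.5e-07).

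The switch of HEY1 was seen again in the RNA-only experiment, with a rise of 3.14 ± 0.78 from the second to the third stage (edgeR, adjusted p = 0.012). Without IMR90-4 or without WTC11 that call was lost (adjusted p = 0.19 and 0.12), and without H9 the rise was 4.75. The H9 low purity library of day 3 already had 31.5 TPM, while the other 5 libraries of its stage had 0.147 to 4.29 TPM. This is the library with the high cardiomyocyte marker sum. It also had the highest fibroblast, smooth muscle and epicardial marker sums of its stage, at 333, 249 and 49.8 TPM. At the third stage the high purity libraries had 35.3, 31.7 and 43.4 TPM in H9, IMR90-4 and WTC11, and the low purity libraries 23.3, 11.5 and 9.09. The high purity library was higher in all 3 lines, with a fold change of 1.32 ± 0.62 that was not called (adjusted p = 0.69). Without H9 it was 1.75 and was called (adjusted p = 0.033).

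HEY2, the repressor of the compact ventricular wall, lies on chromosome 6 (125747664 to 125761269, plus strand). From day 0 to 8 it stayed between 5.90 and 29.8 TPM, with a dip in low purity wells on day 6, when they had 9.40, 8.28, 6.43 and 5.90 TPM against 18.5, 19.5, 19.8 and 20.0 in high purity wells. That difference was called at 1.26 ± 0.11 (adjusted p = 5.1e-13). From day 8 to 16 HEY2 rose by 2.55 ± 0.13 in high and by 1.66 ± 0.12 in low purity wells. On day 16 the high purity wells had 135, 164 and 150.0 TPM and the low purity wells 37.3, 62.8 and 61.5, without overlap. The fold change was 1.71 ± 0.13 (adjusted p = 2.1e-15). It was 1.23 on day 10, or 0.83 and not called without TMM scaling, and 1.40 on day 13. The difference grew by 1.20 from day 4 to 16, but by 0.99 without scaling and 0.96 without the first low purity well of day 16.

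HEY2 was higher in the high purity library of all 3 lines at stages 1, 3 and 4 of the RNA-only experiment. On day 7 or 6 it had 5.48 against 0.611 TPM in H9, 3.48 against 2.40 TPM in IMR90-4 and 4.76 against 2.21 TPM in WTC11. The fold change at that stage was 1.54 ± 0.70 and was not called (adjusted p = 0.43). Without H9 it was 0.88.

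From day 8 on, most cardiomyocyte markers were higher in high purity wells, as HEY1 and HEY2 were, but not on days 4 and 6. Of 10 such markers, 7 were called higher in high purity wells on days 8, 10 and 16 and 8 on day 13, with none called lower on those days. The day 8 fold changes of HEY1 and HEY2, 0.96 and 0.83, were under the threshold. On day 4, by contrast, 8 of 10 markers were lower in high purity wells, with a summed level of 196 to 276 TPM against 1816 to 2033. HEY1 and HEY2 then had fold changes of 0.33 and 0.51. On day 6, when HEY2 was called higher, 2 markers were called higher and 1 lower. The part of cardiomyocyte number in the HEY1 and HEY2 values was not tested.

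HEYL, a further HEY gene, lies on chromosome 1 (39624153 to 39639945, minus strand) and is known from vascular smooth muscle. From day 8 on it was lower in high purity wells, where HEY1 and HEY2 were higher. Up to day 6 all wells had 1.30 to 5.05 TPM. On day 6 the high purity wells had 3.42, 3.10, 2.97 and 4.32 TPM, all above the low purity wells at 2.24, 1.82, 2.32 and 2.87, a fold change of 0.40 that was not called (adjusted p = 0.038), nor was that of day 4, 0.48. On day 8 the low purity wells had 6.28, 9.56, 8.52 and 8.10 TPM and the high purity wells 2.03, 2.59 and 1.46. On day 16 the low purity wells had 16.1, 10.7 and 11.5 TPM and the high purity wells 1.49, 0.806 and 1.73. The classes did not overlap from day 8 on, and the fold changes of high minus low were -1.42, -1.97, -2.02 and -2.45 on days 8, 10, 13 and 16 (adjusted p from 2.5e-15 to 1.8e-08). Every high purity well lay below every low purity well for 30.7% to 52.3% of all genes on those days. HEYL rose by 1.43 ± 0.16 from day 6 to 8 in low purity wells. Between days 4 and 16 the difference between the classes moved by -2.93 ± 0.24 (adjusted p = 9.4e-14). The RNA-only experiment ended on day 6 in WTC11 and on day 7 in H9 and IMR90-4, and HEYL stayed there between 0.401 and 2.12 TPM. On day 7 it had 1.58 TPM in the high and 1.54 TPM in the low purity library of H9. In IMR90-4 it had 0.826 and 0.790 TPM. The low purity H9 library of day 5 had 0.686 TPM.

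Epicardial and fibroblast marker sums were also lower in high purity wells on the days when HEYL was, but not on those days alone. Smooth muscle and pericyte sums overlapped on day 8, at 925 to 1117 TPM in high and 1048 to 1464 TPM in low purity wells. Of 7 such markers tested, 3 were called lower in high purity wells that day, as were 7.5% of all genes. Their sums of day 4 were 111 to 133 TPM in high and 503 to 590 TPM in low purity wells. On day 4 the summed level of 6 fibroblast and stromal markers was already 1138 to 1202 TPM in low and 276 to 424 TPM in high purity wells, and 5 of 6 epicardial markers were called lower in high purity wells on day 6, days on which HEYL was not lower there. On day 16 the fibroblast and stromal sum was 8585 to 11634 TPM in low and 454 to 542 TPM in high purity wells. That of 8 smooth muscle and pericyte markers was 1251 to 1386 against 233 to 257 TPM, although MYH11 was under 0.5 TPM in every well of both classes. All 6 epicardial markers were called lower in high purity wells on day 16. The part of these cells in the HEYL values was not tested.

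HES1 is a general early target of Notch that other signals can also switch on, encoded on chromosome 3 (194136145 to 194138732, plus strand). It was the most abundant member in most of the 16 groups, and the only one to be called in both directions. On day 2 the high purity wells had 132, 165, 179.6 and 131 TPM and the low purity wells 53.0, 60.5, 64.0 and 62.3. This was the single member called that day, at 1.39 ± 0.11 (adjusted p = 1.3e-13). HES1 peaked on day 6 at 335 to 419 TPM in the high and 169 to 195 TPM in the low purity wells, where the fold change of 0.99 fell just short of the threshold. On day 8 it was 1.23 and on day 10 it was 1.07. Without TMM scaling the day 8 value fell just below the threshold of 1 and the day 10 value was 0.66, and neither was called. Then the order turned. On day 13 the high purity wells had 101 and 111 TPM against 196 to 217 in low purity wells. On day 16 they had 43.6, 89.3 and 59.0 TPM against 185, 158 and 184, a fold change of -1.29 ± 0.13 (adjusted p = 2.6e-11). HES1 fell by 2.06 from day 8 to 16 in high purity wells. The difference between the classes moved by -1.84 ± 0.17 from day 4 to 16 (adjusted p = 4.6e-12).

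The early HES1 difference did not recur in the RNA-only experiment. At the second stage HES1 had 64.1 against 30.6 TPM in H9, but 33.1 against 35.7 in IMR90-4 and 33.8 against 50.2 in WTC11. On day 0 it was lower in the high purity library of all 3 lines, with 33.1 against 43.8, 16.7 against 20.4 and 12.2 against 16.0 TPM in H9, IMR90-4 and WTC11. The fold change at the second stage was 0.09 ± 0.26 (edgeR, adjusted p = 0.96), and -0.40 without H9 (adjusted p = 0.67).

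HES1, HEY2 and HEYL have a match to the RBPJ core motif near their start. RefSeq promoters on GRCh38.p14, 250 bases before to 50 bases after the start, were found for 7 of the 10 members and searched for TGGGAA on both strands. The motif was in 3 of the 7 and in 24% of 35116 promoters, and each of the 3 held 2 matches, as 3.8% of promoters did. The 2 stretches below show the paired matches of HES1 and the upstream match of HEY2, with the motif in capitals (TTCCCA is its reverse complement). They are written on the strand of the gene and hold no base that GENCODE v29 places in an exon of the gene. The HES1 stretch lies before the gene, and the HEY2 stretch lies in the gene's first intron, between a short upstream exon and the exon at the RefSeq start. HES1 is chr3:194135898-194136144 and HEY2 is chr6:125749382-125749579, both on the plus strand.
HES1: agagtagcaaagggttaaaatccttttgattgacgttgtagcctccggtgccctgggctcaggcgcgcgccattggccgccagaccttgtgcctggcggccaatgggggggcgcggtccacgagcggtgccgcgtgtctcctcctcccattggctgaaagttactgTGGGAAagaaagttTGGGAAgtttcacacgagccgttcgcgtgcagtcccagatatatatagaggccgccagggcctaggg
HEY2: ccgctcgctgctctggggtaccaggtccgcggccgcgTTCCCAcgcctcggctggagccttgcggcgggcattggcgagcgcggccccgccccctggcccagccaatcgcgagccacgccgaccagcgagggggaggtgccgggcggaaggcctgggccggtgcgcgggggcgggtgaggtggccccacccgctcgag
The HES1 matches begin 84 and 70 bases before the RefSeq start, both on the plus strand of the gene. The HEY2 matches begin 213 bases before it on the minus strand and 3 bases before it on the plus strand. Those of HEYL begin 178 bases before it on the minus strand and 99 bases before it on the plus strand, within the first exon of GENCODE v29. A match is a run of letters and not a measured binding site. The 3 genes with matches moved differently, since HEY2 ended higher, HEYL lower, and HES1 first higher and then lower in high purity wells.

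**Figure D2:**
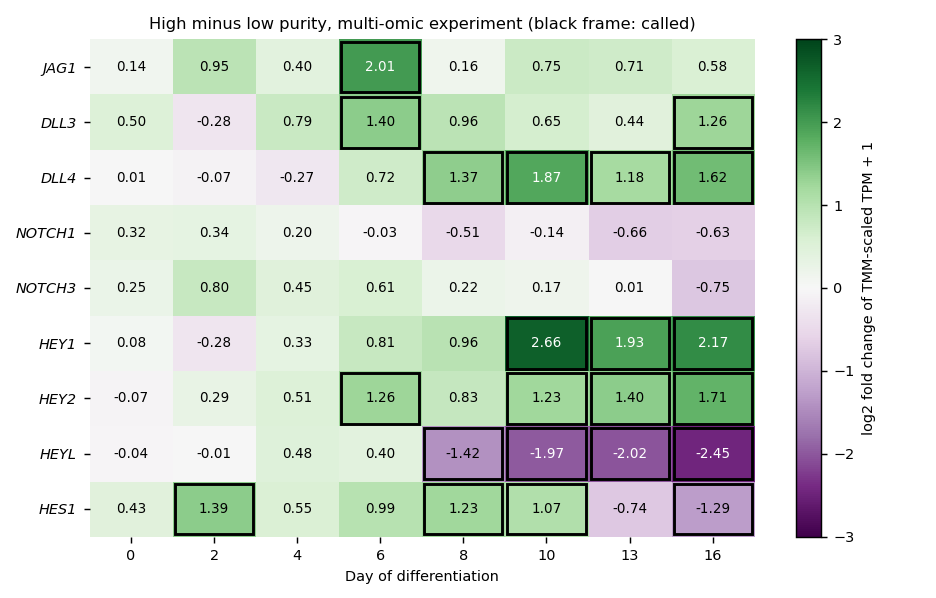
Log2 fold change of high minus low purity wells for 9 members on each of 8 days of the multi-omic experiment (TMM-scaled TPM + 1, limma); green is higher and purple lower in high purity wells, and a black frame marks a call. HEY1 reached 2.66 on day 10 and HEYL -2.45 on day 16, and no member was framed on days 0 and 4.

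Members that were not called often still separated by well. On day 6 the high purity wells lay above all low purity wells for 8 of 9 members, the exception being NOTCH1, and 16.2% of all genes did so. On day 16 no member overlapped, with 5 above and 4 below, while the classes were apart for 47.6% of all genes. In 72 two-sided exact permutation tests of a member on a day, 50 reached the smallest p that their wells allow, 0.0286 with 4 against 4 wells. That smallest p was 0.0667 on day 13, 0.1 on day 16 and 0.2 on day 10, so no test of these days could fall under 0.05. The classes did not overlap for 21.8% of all genes on day 0 and up to 69.1% on day 10. The count is therefore not read as a result about the members. The lowest p after adjustment over the 72 tests was 0.0735. Without TMM scaling the median of all genes moved from -0.06 to -0.34 on day 10, and was -0.18, -0.13 and -0.12 on days 8, 13 and 16. The share of calls that were higher in high purity wells then fell on each of these days: day 8 went from 38.3% to 25.3%, day 10 from 40.2% to 18.2%, day 13 from 42.2% to 30.6% and day 16 from 43.0% to 28.1%. Under other scalings 5 of the 72 values of a member on a day changed sign, and none of these was called.

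The order of the members by level shows what each class ended with. On day 0 in high purity wells NOTCH3 led with 62.9 TPM, followed by NOTCH1 and HES1 at 47.0 and 45.8 TPM, whose wells overlapped, and by HEY2 and JAG1 at 22.0 and 19.9 TPM, whose wells also overlapped. On day 16 HEY2 led in high purity wells with 149.8 TPM. HEY1 and HES1 followed at 70.9 and 63.9 TPM with overlapping wells, then JAG1 at 39.6, NOTCH3 at 16.2, NOTCH1 at 10.1 and DLL4 at 3.31 TPM. In low purity wells of day 16 HES1 led with 176 TPM, followed by HEY2 at 53.9 TPM. NOTCH3 and JAG1, at 32.5 and 30.3 TPM, overlapped, as did NOTCH1 and HEY1, at 18.7 and 17.6 TPM. HEYL followed at 12.7 TPM, and DLL4 and DLL3 were under 1 TPM in every well.

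In the RNA-only experiment the classes could not be told apart gene by gene. The edgeR fit called 0 members and 0 genes of 24810 (0.0%) between high and low purity at each of the 4 stages, although 362, 1921, 1828 and 2916 genes had an unadjusted p under 0.05. DESeq2 called 1 member at the second stage, DLL3, which is given without a comparison to the share of all genes it called. The high purity library was the higher in all 3 lines for 3 members on day 0 (10.9% of genes), 3 at the second stage (19.3%), 4 at the third (21.6%) and 3 at the fourth (14.8%). At the third stage these were DLL3, HEY1, HEY2 and HEYL, and at the fourth DLL3, HEY1 and HEY2. The HEYL values of IMR90-4 at the third stage were 1.01 TPM in each class. Between stages, DLL3 and JAG1 rose from the first to the second (25.6% of genes called), HEY1 rose and DLL3 fell from the second to the third (6.86%), and no member was called from the third to the fourth (3.72%). The rise of JAG1, 1.81 ± 0.51, lost its call without IMR90-4 (adjusted p = 0.13), and was 1.88 without H9. The HES1 change at that step was 0.98, short of the threshold, and 1.39 without H9, which was called.

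**Figure D3:**
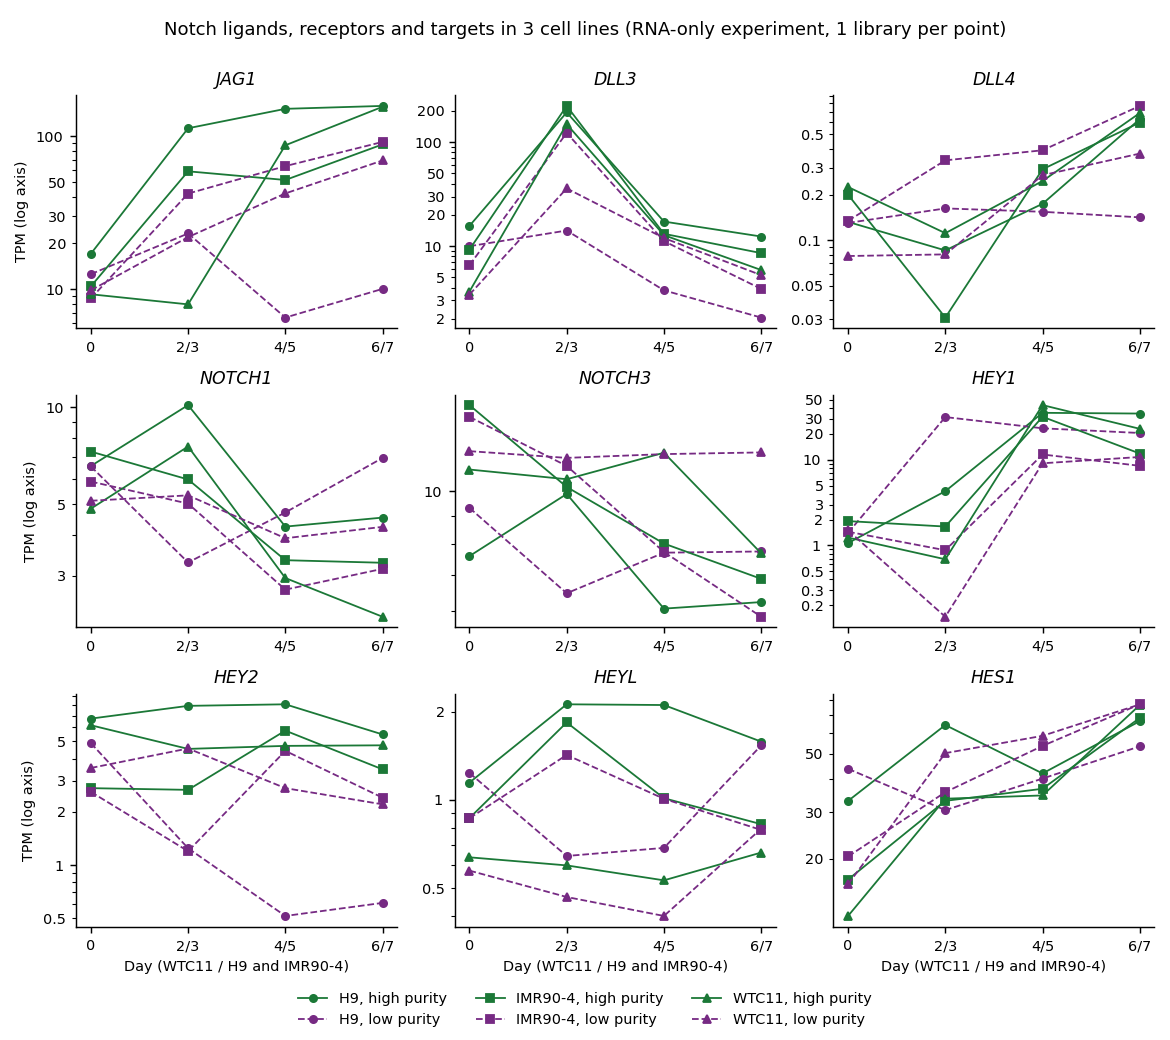
TPM of 9 members in the RNA-only experiment on a log axis, by stage; each point is 1 library, shapes are the 3 cell lines, green solid lines are high and purple dashed lines low purity differentiations. DLL3 peaked at the second stage in each of the 6 differentiations, and the H9 low purity line stands apart for JAG1, HEY1 and HEY2.

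Changes within each multi-omic differentiation set these calls in time. From day 0 to 2, 3 members were called in high purity wells (16.7% of genes): DLL3 and HES1 rose (9.66%), the latter by 1.66, and HEY1 fell by 1.10 (7.04%). In low purity wells 2 were called (17.9%), with DLL3 up (11.0%) and NOTCH3 down by 1.12 (6.87%). The HEY1 fall was -0.93 without the second high purity well of day 2, it fell just short of the threshold without the first of day 0, and the NOTCH3 fall was -0.96 without scaling. From day 2 to 4, 4 members were called in each class (13.7% and 16.9%), and they were the same 4: HEY1 and JAG1 rose (6.74% and 8.18%) and DLL3 and NOTCH1 fell (6.96% and 8.7%). From day 4 to 6, DLL4 and HES1 rose by 1.08 and 1.02 in high purity wells (7.96% called, 4.53% up and 3.44% down). JAG1, DLL3 and HEY2 fell in low purity wells (6.61% called, 3.87% up and 2.74% down), HEY2 by 1.26. The HES1 rise was 0.93 without the fourth high purity well of day 6 and 0.94 without the fourth of day 4. From day 6 to 8, JAG1 fell in high purity wells (5.58% called, 2.87% up and 2.72% down), and HEY2 and HEYL rose in low purity wells (3.31% called, 2.03% up and 1.28% down), HEY2 by 1.21. From day 8 to 16, HEY2 rose in both and HES1 fell in high purity wells, where 11.4% of genes were called, 6.14% up and 5.24% down. In low purity wells 6.39% were called, 3.59% up and 2.8% down. The change of the high minus low difference was called for 0 members between days 0 and 4 (7.01%) and for 6 between days 4 and 16 (15.5%).

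The rest of the pathway was followed in 42 further genes, of which 40 passed the filter in the multi-omic experiment. None was called on day 0. On the later days, in order from day 2 to 16, calls higher in high purity wells numbered 0, 6, 4, 4, 2, 1 and 1, and calls lower numbered 1, 0, 1, 3, 3, 5 and 6. In the same order of days, 2.5%, 15.0%, 12.5%, 17.5%, 12.5%, 15.0% and 17.5% of the 40 genes were called. The shares of all genes tested were 5.32%, 7.84%, 8.8%, 12.2%, 14.3%, 10.8% and 13.4%. Of these days, the list was below all genes on days 2 and 10. Over all genes too, more were called lower on day 16 than on day 4. The list's median log2 fold change was 0.11 on day 4 and -0.05 on day 16.

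NRARP, a feedback inhibitor that binds the receptor's nuclear part, was the pathway gene called higher on the most days of those named by rule. It had 11.0 ± 1.01 TPM (SD, n = 4) in high and 2.58 ± 0.52 (n = 4) in low purity wells on day 4, and 15.8 ± 1.48 against 2.85 ± 1.37 TPM on day 6. The fold changes were 1.75, 2.16, 1.51, 1.41 and 1.28 on days 4, 6, 8, 10 and 13, and 0.62 on day 16, under the threshold. HES4, a target related to HES1, followed early, with 1.01 on day 4 and 1.54 on day 6. LFNG, a glycosyltransferase that modifies the receptors, was higher on day 6 (1.33) and day 8 (1.01). JAG2, the second Jagged ligand, was higher on day 10 (1.27) and day 16 (1.00). RBPJ was called on no day, with fold changes between -0.15 and 0.48.

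NOTCH2, the receptor outside the named set, showed the widest gap among the receptors. It rose in low purity wells from 32.6 ± 1.07 TPM (SD, n = 4) on day 0 to 140.3 ± 7.97 (n = 4) on day 8 and 134 ± 8.84 (n = 3) on day 16. High purity wells had 33.3 ± 6.72 (n = 3) and 29.8 ± 3.19 TPM (n = 3) on those days. The fold changes were -1.83, -1.67, -1.81 and -1.92 on days 8, 10, 13 and 16. MAML2, a Mastermind coactivator, first stood higher in high purity wells, at 1.36 on day 4, and then lower, at -1.94 on day 6 and -2.48 on day 16. DLK1, an atypical ligand, turned later: it was higher by 2.63 on day 6 and 2.66 on day 8 and lower on days 13 and 16, at -1.90 and -4.21. In TPM, DLK1 went from 352 ± 40.8 in high and 59.4 ± 24.3 in low purity wells on day 6 (n = 4 each) to 12.2 ± 5.84 and 259 ± 11.6 on day 16 (n = 3 each). HES6, which counteracts HES1, was lower on day 2 (-1.04) and day 16 (-1.04), but without the second or the third high purity well of day 2 it was -0.95 or -0.96, and without single wells of day 16 it was between -0.84 and -0.87, all short of the threshold. HES5 was listed at 0 TPM in every well and NOTCH4 reached at most 0.166 TPM in any of its entries, but their symbols are listed at 2 and 7 places, as with DLL1. In the RNA-only experiment 0 of the 40 pathway genes tested were called between the classes.

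**Figure D4:**
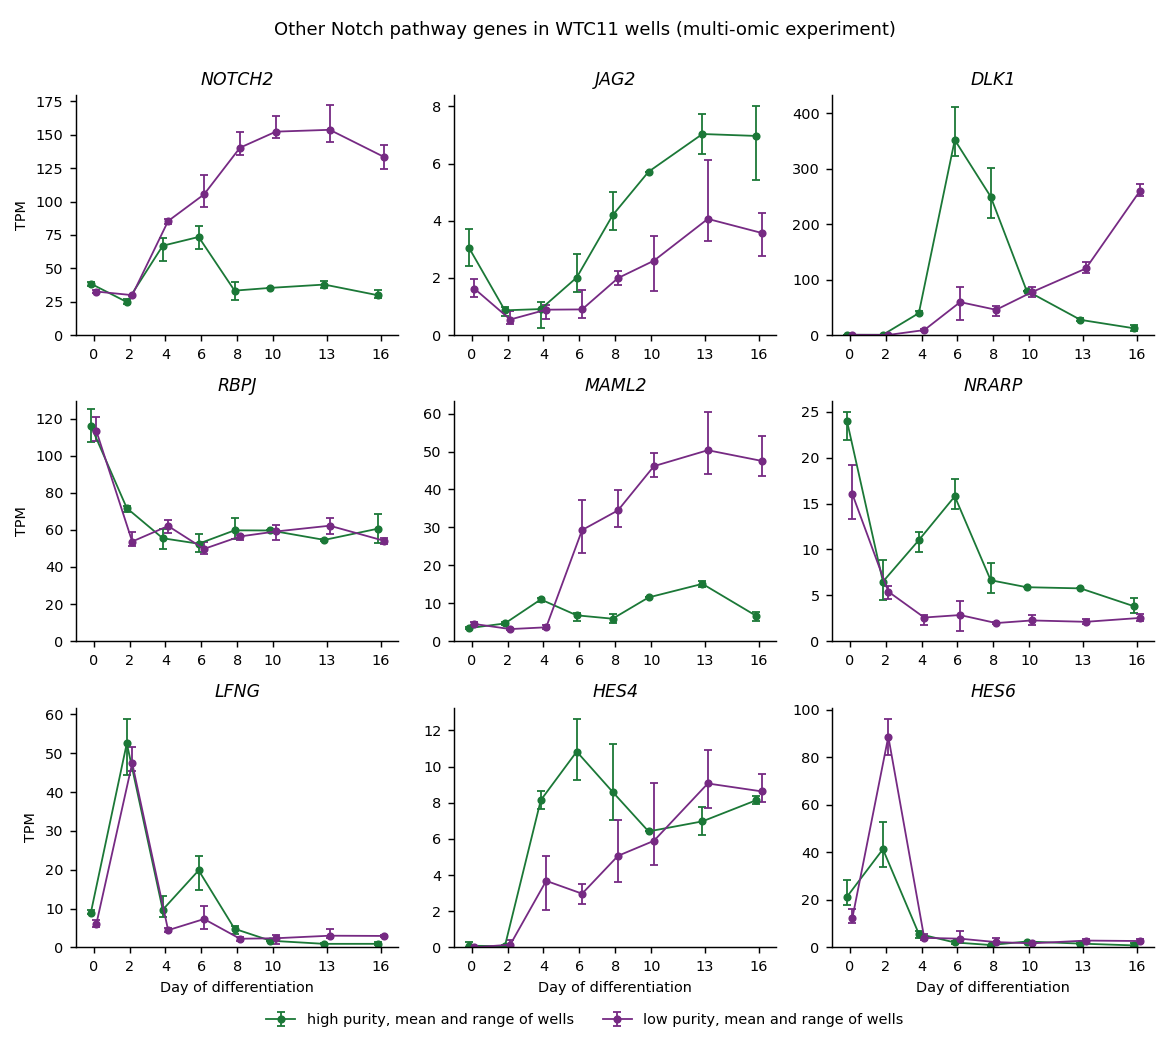
TPM of 9 other Notch pathway genes in the multi-omic experiment by day; points are the mean and bars the range of the wells, green is high and purple low purity. NOTCH2 and MAML2 rose in low purity wells, reaching 134 and 47.5 TPM on day 16, NRARP was higher in high purity wells on days 4 to 13, and the order for DLK1 turned between days 8 and 16.

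The genes most like each member over the 16 groups of purity and day were named by Pearson correlation of their group means among 13363 genes, as a description. DLL3 was most like GSC (r = 0.98) and TBXT (0.98), genes of the primitive streak, and LINC01124 (0.97). JAG1 was most like GATA3 (0.95), GATA2 (0.93) and ZNF740 (0.92), and DLL4 most like PRKCH (0.98), TMEM127 (0.97) and MIR208A (0.96). NOTCH1 was most like CD74 (0.94), SYT1 (0.93) and WARS (0.92), and NOTCH3 most like CDK4 (0.91), INTS14 (0.91) and NT5DC2 (0.90). HEY1 was most like SMAD9 (0.97), NKX2-6 (0.97) and SLC30A3 (0.97), and HEY2 most like TNFAIP8 (0.94), ZNF330 (0.93) and SLC2A4 (0.93). HEYL was most like DOK5 (0.90), MEDAG (0.90) and LOC105378031 (0.89), and HES1 most like ACADVL (0.90), VPS16 (0.90) and GALC (0.88). Among the members themselves the pair most alike was JAG1 and HEY1 (r = 0.75), and the pair most opposed was NOTCH1 and HEY1 (r = -0.92). The groups share their differentiation and the days follow each other, so these points are not independent.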

How the data were processed

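RNA was measured in 80 libraries of human pluripotent stem cell lines during cardiomyocyte differentiation. Per the submitters' processing notes, reads were aligned with STAR 2.5.3a to hg38 and counted with featureCounts 2.0.3. The annotation, the strand setting and the computation of TPM are not given in the sources used here. The authors deposited TPM and read counts per gene for each experiment.

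The multi-omic TPM were scaled by TMM and tested with limma 3.58.1 (trend) on log2(TPM + 1), over 25664 genes with at least 1 TPM in 3 libraries and with 16 group means. The deposited multi-omic count columns were not used as measurements: none of the 56 matched the TPM column of its own name, and 50 matched a column of another name. Column names of the TPM table were used, since 32 of 32 columns with a matching day were nearest to the RNA-only WTC11 library of that day, against 6 of 32 for the count table. Reads recovered from TPM with gene lengths came out whole within 0.02 for 100% of nonzero values. The RNA-only counts, as deposited by the authors, were tested with edgeR 4.0.16 (quasi-likelihood, TMM, filterByExpr), with line by stage means, or with the 6 differentiations as a block between stages; 36 broken lines were left out. p-values were adjusted by Benjamini-Hochberg over all genes tested.

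Beside the members, the pathway genes named are those called on a day, at most 3 per day by size of fold change, and NOTCH2, NOTCH4, JAG2, RBPJ, LFNG, NRARP, HES4 and HES5 whatever they did. The 3 genes most like a member were taken from those with a group mean of at least 10 TPM. The members and lists were chosen with earlier results of these data known. The fits were tested on simulated data. Alternatives included other scalings, pseudocounts, filters and tools (DESeq2 1.42.0), a replicate block, and leaving out each well or line.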

Additional observations from a re-analysis of the deposited data

Results flagged for a closer look

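If values are normal, chance alone puts 1 of 4 wells far off in about 1 in 20 groups. This rate need not hold for values near 0 TPM. In 11 of 99 groups of 4 wells, 1 well lay far from the other 3. For the receptors, these were NOTCH1 in the first low purity well of day 10 (35.2 TPM, nearest other well 25.99) and NOTCH3 in the second high purity well of day 0 (55.0, nearest 64.85) and the fourth of day 6 (50.7, nearest 62.31). For the ligands, they were DLL3 in the fourth high purity well of day 0 (0.650, nearest 1.646) and the third low purity well of day 2 (87.9, nearest 100.4), and JAG1 in the fourth low purity well of day 2 (11.5, nearest 13.7). DLL4 stood apart in the third high purity well of day 4 (0.145, the others at 0), the first of day 6 (2.52, nearest 1.037) and the fourth low purity well of day 8 (0.485, nearest 0.7299). For the targets, they were HEY2 in the fourth high purity well of day 4 (28.9, nearest 25.89) and HES1 in the fourth low purity well of day 0 (36.9, nearest 31.31).

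For 6 members the high minus low difference changed between days 4 and 16 by a test of the change itself (limma). On the log2 scale the change was 1.89 for DLL4, 1.84 for HEY1 and 1.20 for HEY2, and it was -1.20 for NOTCH3, -1.84 for HES1 and -2.93 for HEYL.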

How the results depend on the processing

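Of 110 values followed, 78 kept their direction and side of the threshold in every setting run and 13 lost a call in at least 1. Over 1395 alternatives no called value reversed. The uncalled NOTCH3 value was -0.0030 on day 8, -0.23 on day 10 and -0.18 on day 13 without scaling, and on day 13 it ran from -0.18 to 0.20 when single wells were left out. The uncalled HES1 value at the second RNA-only stage ran from -0.40 (without H9) to 0.46 when single lines were left out. Examples of how the number of members called moved follow, without a comparison to the share of all genes called in each setting. Without the fold threshold it was 2, 5, 6, 8, 7 and 7 for days 0, 2, 4, 6, 8 and 13. It also rose on day 10, where JAG1 was added, and on day 16, where JAG1, NOTCH1 and NOTCH3 were. Without scaling it was 3 instead of 5 on day 10, and 1 instead of 2 from day 0 to 2 in low purity wells. In that setting it also rose on day 6, where HES1 was added at 1.01, and fell on day 8, where HES1 was lost. It rose from day 8 to 16 in high purity wells, where NOTCH3 was added at -1.16. With edgeR on recovered reads it was 1 instead of 0 on day 4, where DLL4 was lower in high purity wells, at -2.71. That setting also gave 5 instead of 3 on day 6, and 2 instead of 1 from day 6 to 8 in high purity wells. A pseudocount of 0.1 gave 1 on day 4, a different gene in the other direction, DLL3 at 1.00. In the RNA-only experiment DESeq2 called 1 instead of 0 at the second stage. The causes were not tested.

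Leaving out 1 well gave 3 to 5 calls on day 8 (5 without the third low purity well), 1 to 2 from day 4 to 6 in high purity wells (1 without the fourth well of day 4 or the first or the fourth of day 6), and 1 to 2 from day 6 to 8 (2 without the first well of day 6 or the second of day 8). Leaving out 1 line gave 0 to 1 at the third RNA-only stage (1 without H9) and 1 to 2 calls from the second to the third stage (1 without IMR90-4 or WTC11).

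Wells with the same number did not deviate together: in 15 pairs of groups the correlations ran from -0.051 to 0.109, and 15 of 56 wells were most like their own number. With the well number as a replicate block, 5 members were called on day 10 and 4 on day 13, and no call changed in 95 values. Values under about 1 TPM rest on few reads, as for DLL4 and late DLL3, and day 10 has a single high purity well.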
